A study of Sus scrofa with 30 samples.

Results

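Glycosyltransferases of cell surface glycans build the sugar chains that cover an embryo, and 55 of the 13103 genes counted in all embryos belong to the families described here. They were chosen by the NCBI gene symbol of the pig: the fucosyltransferases (FUT followed by a digit), the sialyltransferases (ST3GAL, ST6GAL and ST8SIA genes), the GALNT and GCNT genes, the MGAT genes, and the B3GNT, B3GALT and B4GALT genes. In the Sscrofa11.1 annotation 81 genes have such a symbol, and the other 26, among them ST6GAL1 and every ST8SIA gene, are not analysed here. The 55 genes comprise 8 fucosyltransferases, 10 sialyltransferases, 11 GALNT, 3 GCNT, 7 MGAT, 7 B3GNT, 2 B3GALT and 7 B4GALT genes.

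RNA-seq was performed on 30 single embryos, 5 female and 5 male on each of Days 8, 10 and 12 after insemination, a window that spans the onset of conceptus elongation. The embryos came from German Landrace × Pietrain crossbred gilts, synchronized and hormone-treated, that were all inseminated with semen of one Pietrain boar. Each library was made from a complete flushed embryo with embryonic disc and trophectoderm, and sex was determined from DNA of the same embryo. As 4 gilts were used per day, the 10 embryos of a day came from at most 4 litters, and female and male embryos shared gilts. Which gilt carried an embryo is not given, so litters could not be modelled, and the p-values measure the spread between embryos that are in part littermates.

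A glycan grows by single sugars, each added by an enzyme that is specific for the sugar, the acceptor and the bond. GALNT enzymes start O-glycans on serine or threonine, GCNT enzymes branch them, MGAT enzymes branch N-glycans, B3GNT and B4GALT enzymes lengthen the chains with N-acetylglucosamine and galactose, and fucosyl- and sialyltransferases cap the ends. In the pig the conceptus attaches without invading the uterine wall. The capped ends, such as H, Lewis x and sialylated structures, are bound by lectins such as galectins and siglecs.

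Total counts per embryo ran from 6068212, in the Day 12 female embryo d12_f_245, to 34002508. The values below are CPM, read counts scaled to the size of the library, after TMM scaling. They are not divided by transcript length and are therefore compared within a gene only. In the smallest library, 3 counts correspond to 0.434 CPM. A gene was called between days at an adjusted p under 0.001, with a log2 fold change larger than 1 in size, in edgeR's quasi-likelihood F test with Benjamini-Hochberg adjustment over all 13103 genes, and errors of log2 fold changes are standard errors (SE). A set of 3 levels for a day gives the lowest, the median and the highest of its 10 embryos. The sex labels were matched by the Y-linked EIF1AY, at 29.6 to 49.3 CPM in the male and at most 0.0514 CPM in the female embryos.

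More of the genes were called lower than higher between Days 8 and 10, and more were called higher than lower between Days 10 and 12. The falls of Day 10 were in fucosyltransferases, sialyltransferases, MGAT, GALNT and GCNT genes, and FUT9, GCNT3, GCNT4, B3GNT7 and B4GALT1 were among the rises of Day 12. On Day 10, 4 of the 55 genes were called higher and 11 lower than on Day 8, 15 in all, while 14.1% of all genes were called, 9.88% higher and 4.2% lower. On Day 12, 17 genes were called higher and 5 lower than on Day 10, 22 in all, where 23.3% of all genes were called, 14.9% higher and 8.39% lower. In the counts deposited by day, FUT9, GALNT15 and GCNT4 were kept on Day 12 only and MGAT3 on Day 8 only. Their calls are therefore descriptions and not independent tests. MGAT5B and GALNT6 were not kept on Day 8, nor were ST6GALNAC1 and GALNT12 on Day 10. The changes of these genes against those days are likewise descriptions and not independent tests. GALNT18 was kept on no day and so entered no test between the sexes. The median log2 fold change of the 55 genes was 0.08 in the first and 0.80 in the second comparison, against 0.03 and 0.04 over all genes. Both comparisons use the same Day 10 embryos. In RNA from whole embryos, fewer cells of a type and less RNA per cell cannot be told apart.

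**Figure D1:**
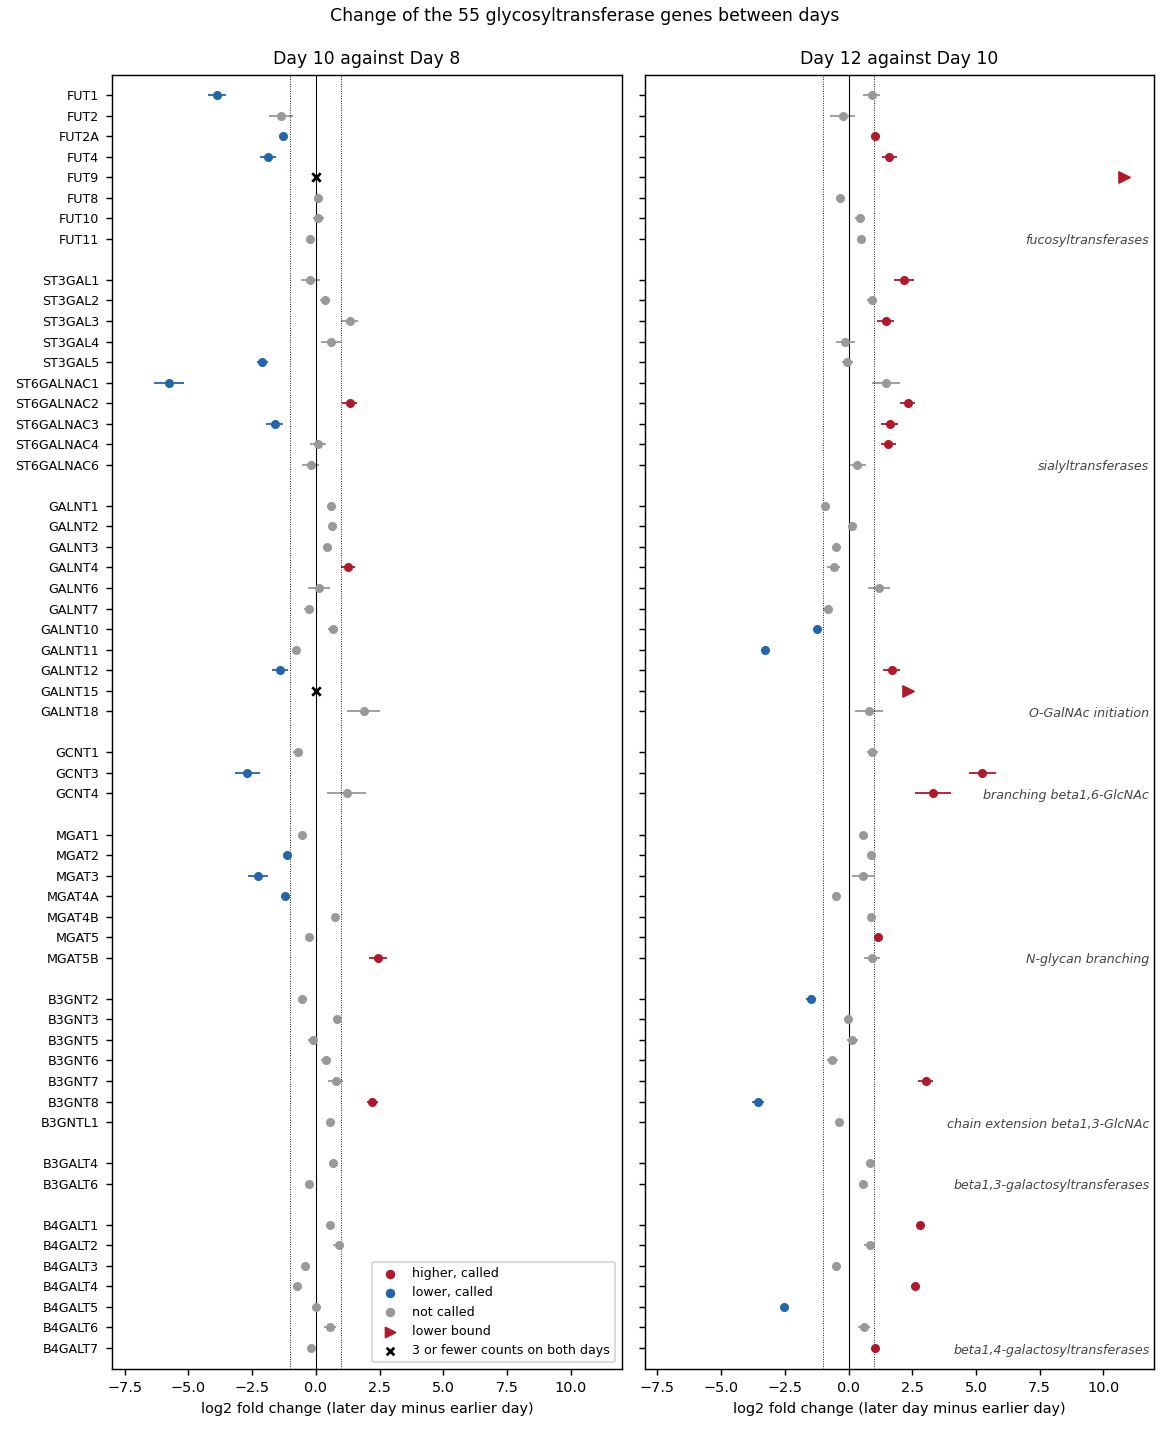
Log2 fold change of each of the 55 genes (rows, grouped by family) on Day 10 against Day 8 (left) and on Day 12 against Day 10 (right), with SE bars; red marks genes called higher, blue genes called lower and grey genes not called. Triangles are lower bounds and crosses mark genes at 3 or fewer counts in every embryo of both days. On the left 11 genes are blue and 4 red, on the right 5 are blue and 17 red, and the bound for FUT9 lies farthest out.

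Among the fucosyltransferases, FUT9 was at the floor on Days 8 and 10 and high in every embryo of Day 12. FUT9 adds α-linked fucose to the end of lactosamine chains and makes the Lewis x structure, known as SSEA-1 on mouse embryos. It had at most 2 counts in each Day 8 embryo and at most 3 in each Day 10 embryo. On Day 12 the 5 female embryos had 43.4, 132.6, 200.2, 206 and 312 CPM, and the 5 male embryos had 174, 193, 195, 453.9 and 579 CPM. All 10 Day 12 embryos lay above all 20 earlier ones. With 3 counts taken as the level of every earlier library, FUT9 was at least 1789-fold higher on Day 12 than on Day 10 (adjusted p = 2.85e-19) and at least 1779-fold higher than on Day 8 (adjusted p = 1.60e-19). The gene was named for this description because of its Day 12 level, so that its change is a description and not an independent test. Its annotated span, from base 51038 to 65282, lies on a scaffold that is not placed on a chromosome.

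The lowest FUT9 level on Day 12 was in female embryo d12_f_245, where it rested on 300 counts, and the highest was in male embryo d12_m_276, with 14107 counts. The summed CPM of the 3 mesoderm markers, which is almost wholly HAND1 on that day, was 646 in embryo d12_f_245 and 1852 in embryo d12_m_276. The other markers, T and EOMES, had 3 or fewer counts in 9 and 10 of the Day 12 embryos. The sum is therefore a reading of HAND1 and not of the list. The summed CPM of the 6 hypoblast markers was 650 and 320, and that of the 8 trophectoderm markers 19063 and 12227, in the same order. The trophectoderm sum was mostly KRT8 and KRT18. The part of cell composition in the spread of FUT9 was not tested.

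The other fucosyltransferase of Lewis x synthesis, FUT4, had 5.63, 10.2 and 31.5 CPM on Day 8, 2.67, 3.79 and 4.97 CPM on Day 10, and 5.76, 10.4 and 22.1 CPM on Day 12. Every Day 10 embryo was below every embryo of either other day. FUT4 fell to Day 10 (log2 fold change -1.88 ± 0.30, adjusted p = 4.75e-06) and rose to Day 12 (1.61 ± 0.30, adjusted p = 2.95e-05). The gene lies on chromosome 9 (26679540 to 26686217) within the annotated span of PIWIL4, and whether reads were counted by strand is not given in the sources used here. In all, 20 members overlap the annotated span of another gene, among them FUT1, FUT2A, ST6GALNAC1, ST6GALNAC2, MGAT5, B3GNT7 and B3GNT8.

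FUT1, FUT2 and FUT2A lie together on chromosome 6, between bases 54010093 and 54080475. FUT1 and FUT2 add α-linked fucose to terminal galactose and so make the H structure of the ABO and secretor systems. FUT1 had 4.41, 12.2 and 21.4 CPM on Day 8 and 0.196, 0.587 and 1.59 CPM on Day 10, with no overlap, and fell by 3.89 ± 0.35 on the log2 scale (adjusted p = 1.34e-10). On Day 12 it had 0.656, 1.64 and 2.28 CPM, which was not called against Day 10 (log2 fold change 0.90 ± 0.34, adjusted p = 0.0217). It remained below every Day 8 embryo.

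FUT2A had 10.8, 12.7 and 18.1 CPM on Day 8, 3.69, 5.43 and 6.70 CPM on Day 10 and 5.41, 10.7 and 19.97 CPM on Day 12. It fell to Day 10 (log2 fold change -1.29 ± 0.17, adjusted p = 2.06e-07) and rose to Day 12 (1.05 ± 0.17, adjusted p = 3.64e-06), when 9 of 10 embryos were above the highest Day 10 embryo. Its rise stood close to the threshold: the log2 fold change was 0.99 without the Day 10 male embryo d10_m_453, 0.93 without the Day 12 female embryo d12_f_245 and 0.998 without the Day 12 male embryo d12_m_275, and the gene was not called in these fits. FUT2 ranged widely within each day, with means of 6.80 ± 4.72, 2.63 ± 1.37 and 2.20 ± 1.74 CPM (SD, n = 10) on Days 8, 10 and 12, and was not called. FUT2A and FUT2 are annotated 10661 bases apart, and reads shared between such close copies could be split by the counting.

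FUT8, which adds the core fucose of N-glycans, and FUT10 and FUT11 of the endoplasmic reticulum were not called in any comparison. FUT8 had 23.8 ± 2.74, 25.4 ± 1.78 and 20.3 ± 3.85 CPM on the 3 days, and FUT11 114 ± 8.40, 96.0 ± 7.40 and 134 ± 15.8 CPM (SD, n = 10). FUT10 is, like FUT9, annotated on an unplaced scaffold. In total 3 fucosyltransferases were called lower on Day 10 and 3 were called higher on Day 12, of 8.

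**Figure D2:**
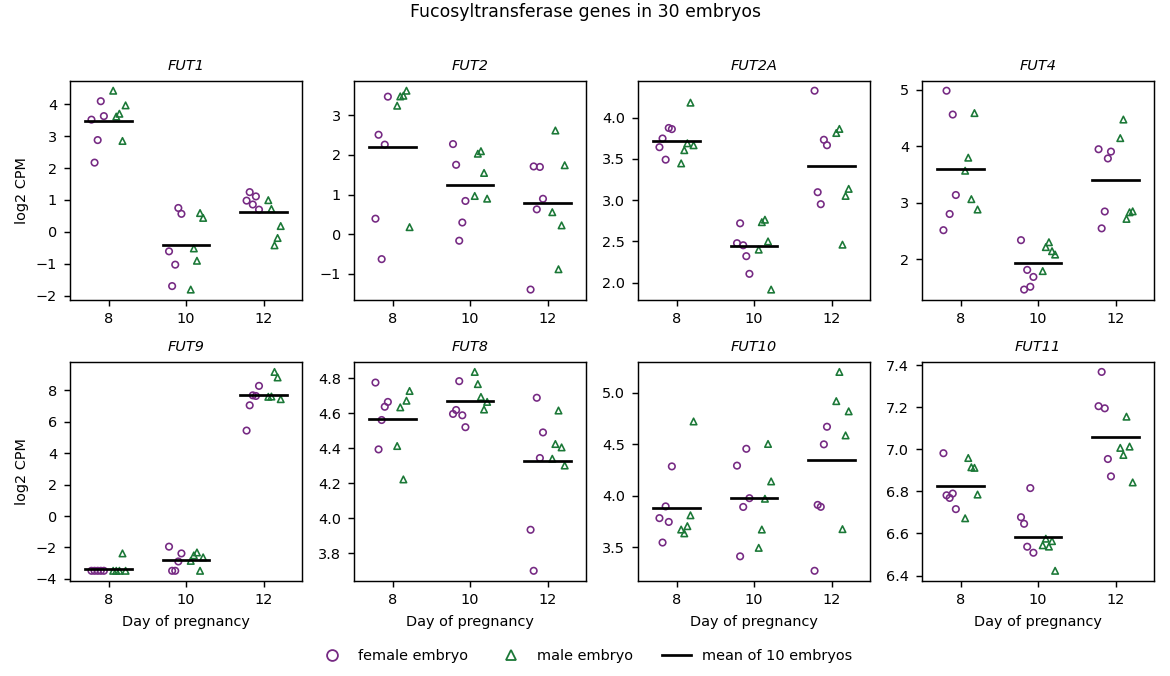
Log2 CPM of the 8 fucosyltransferase genes (vertical axis, one panel a gene with its own scale) by day (horizontal axis), with one symbol per embryo, circles for female and triangles for male, and a bar for the mean of 10 embryos. FUT9 stands near the floor on Days 8 and 10 and above 43 CPM in every Day 12 embryo, and FUT1 drops between Days 8 and 10.

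Of the sialyltransferases, ST6GALNAC1, which adds sialic acid to the first sugar of an O-glycan and makes sialyl-Tn, had 17.6, 28.1 and 46.7 CPM on Day 8 and 0.0445, 0.257 and 2.77 CPM on Day 10. No Day 10 embryo reached a Day 8 embryo, and the gene fell by 5.77 ± 0.57 on the log2 scale (adjusted p = 1.05e-09), the largest fall among the 55 genes in that comparison, where 2 of the Day 10 embryos had 3 or fewer counts. Without the Day 10 female embryo d10_f_433, which had the 2.77 CPM, the log2 fold change was -6.70. On Day 12 it had 0, 1.36 and 3.62 CPM and was not called against Day 10 (log2 fold change 1.47 ± 0.55, adjusted p = 0.0216). Without the same embryo d10_f_433 that value was 2.40 (adjusted p = 0.000171) and passed. With all embryos, edgeR's robust GLM, which the authors used, also called ST6GALNAC1 higher on Day 12 (2.18, adjusted p = 4.53e-07). As ST6GALNAC1 was not kept in the counts by day on Day 10, both steps are descriptions and not independent tests.

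ST6GALNAC2, which sialylates the core of O-glycans, lies 29324 bases from ST6GALNAC1 on chromosome 12 and moved the other way between Days 8 and 10. It had 0.329, 0.757 and 1.30 CPM on Day 8, 0.791, 1.69 and 3.79 CPM on Day 10 and 3.12, 9.76 and 19.98 CPM on Day 12. It rose at both steps, with log2 fold changes of 1.33 ± 0.30 (adjusted p = 0.000374) and 2.33 ± 0.29 (adjusted p = 3.45e-08), and 9 of 10 embryos exceeded the highest embryo of the day before at each step. The first rise was not called without the Day 10 female embryo d10_f_454 (log2 fold change 1.22, adjusted p = 0.0011) or the Day 10 male embryo d10_m_453 (1.18, adjusted p = 0.00127), or under scaling by library size alone (1.14, adjusted p = 0.0018).

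ST6GALNAC3, which makes disialylated O-glycans and gangliosides, followed another course. Its levels were 5.73, 9.99 and 15.3 CPM on Day 8, 1.69, 2.74 and 5.56 CPM on Day 10 and 2.40, 6.65 and 29.0 CPM on Day 12. All Day 10 embryos were below all Day 8 embryos, and 7 of 10 Day 12 embryos were above the highest Day 10 embryo. The log2 fold changes were -1.61 ± 0.34 (adjusted p = 0.000173) and 1.61 ± 0.34 (adjusted p = 0.000133), and the second was not called when only the embryos of Days 10 and 12 were fitted (adjusted p = 0.00143). ST6GALNAC4, with a like acceptor, rose on Day 12 from 4.05 ± 1.42 to 12.2 ± 11.5 CPM (SD, n = 10; log2 fold change 1.57 ± 0.31, adjusted p = 6.91e-05). Female embryo d12_f_245, the smallest library, had 44.0 CPM and the other 9 embryos of Day 12 had 4.43 to 13.2 CPM, and without it the log2 fold change was 1.10 (adjusted p = 9.03e-05). ST6GALNAC6 was not called.

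Of the α2,3-sialyltransferases, ST3GAL1 caps the galactose of core O-glycans. It had 2.91, 9.87 and 19.5 CPM on Day 8, 2.20, 6.61 and 15.2 CPM on Day 10 and 2.28, 42.2 and 56.4 CPM on Day 12. In 9 of 10 Day 12 embryos it was above every Day 10 embryo, from 22.1 CPM upwards, and female embryo d12_f_271 had the 2.28 CPM. ST3GAL1 rose on Day 12 (log2 fold change 2.17 ± 0.39, adjusted p = 1.55e-05). ST3GAL3, which caps lactosamine chains, rose from 2.63 ± 1.35 to 7.23 ± 4.19 CPM on Day 12 (SD, n = 10; log2 fold change 1.46 ± 0.33, adjusted p = 0.000337). That rise was not called without the Day 12 female embryo d12_f_289 (1.34, adjusted p = 0.0010027) or the Day 12 male embryo d12_m_276 (1.26, adjusted p = 0.00119). On Day 8 ST3GAL3 had 1.06 ± 0.42 CPM, and its step to Day 10 was not called (1.33 ± 0.34, adjusted p = 0.00152). That step passed without d10_f_433, d10_m_435 or d12_m_307 (1.33 to 1.43). On Day 12 against Day 8 the gene was called higher without overlap (2.78 ± 0.35, adjusted p = 2.83e-08). ST3GAL2 had 14.2 ± 3.90, 18.2 ± 4.04 and 34.3 ± 13.4 CPM on the 3 days (SD, n = 10) and was called on Day 12 against Day 8 only (log2 fold change 1.27 ± 0.19, adjusted p = 5.75e-07).

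ST3GAL5 makes GM3, the first ganglioside of the series. It had 11.9, 17.1 and 26.8 CPM on Day 8, 3.24, 3.70 and 6.36 CPM on Day 10 and 1.44, 3.44 and 7.54 CPM on Day 12. It fell to Day 10 with no overlap (log2 fold change -2.10 ± 0.21, adjusted p = 1.60e-09), and Days 10 and 12 overlapped. ST3GAL4 was not called. Of the 10 sialyltransferases, Day 10 brought 1 called rise and 3 called falls, and Day 12 brought 5 rises and 0 falls.

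**Figure D3:**
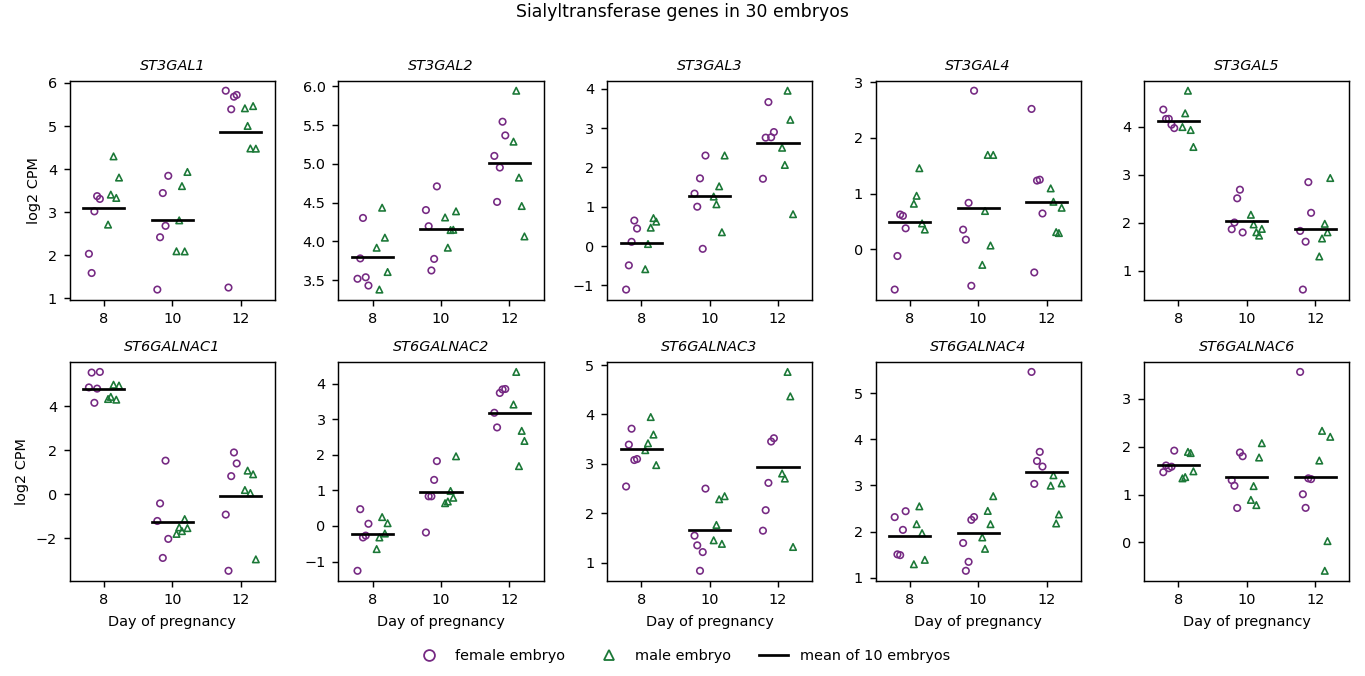
Log2 CPM of the 10 sialyltransferase genes by day, drawn as in the plot of fucosyltransferases, with female embryos as circles, male embryos as triangles and a bar for the mean of 10 embryos. ST6GALNAC1 and ST3GAL5 are high on Day 8 only, and ST6GALNAC2 and ST3GAL1 are high on Day 12, where 1 embryo has ST3GAL1 at 2.28 CPM.

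Of the GALNT genes, which start mucin-type O-glycans, GALNT11 fell the most. It had 735, 836 and 1004 CPM on Day 8, 413, 472 and 722 CPM on Day 10 and 42.5, 53.2 and 62.4 CPM on Day 12, and no 2 days overlapped. The log2 fold change on Day 12 against Day 10 was -3.27 ± 0.10 (adjusted p = 1.22e-22), and on Day 10 against Day 8 it was -0.77 ± 0.09 (adjusted p = 2.00e-08), under the fold change required for a call. GALNT11 is known for its action on the NOTCH1 receptor and on lipoprotein receptors, and lies on chromosome 18 from base 5291526 to 5348113.

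GALNT10, which prefers peptides that already carry a sugar, had 56.7, 70.2 and 94.6 CPM on Day 8, 80.1, 108.7 and 160 CPM on Day 10 and 24.5, 44.7 and 73.4 CPM on Day 12. It fell on Day 12 without overlap (log2 fold change -1.23 ± 0.18, adjusted p = 5.14e-07). GALNT4, another enzyme of such peptides, had 10.4, 15.3 and 25.0 CPM on Day 8 and 22.7, 39.1 and 55.6 CPM on Day 10. GALNT4 rose on Day 10 (log2 fold change 1.27 ± 0.27, adjusted p = 0.000167), with 9 of 10 embryos above the highest Day 8 embryo, and on Day 12, with 6.94, 23.0 and 58.8 CPM, it was not called against Day 10. It lies inside the annotated span of POC1B.

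GALNT12 was a gene of low level. It had 1.21, 1.78 and 2.17 CPM on Day 8, 0.174, 0.607 and 1.16 CPM on Day 10 and 0.492, 2.62 and 3.24 CPM on Day 12, with a fall (log2 fold change -1.42 ± 0.32, adjusted p = 0.000456) and a rise (1.70 ± 0.32, adjusted p = 4.11e-05). The fall was not called without the Day 10 female embryos d10_f_315 or d10_f_336, with adjusted p of 0.00109 and 0.00111. GALNT12 was not kept in the counts by day on Day 10, and both changes are descriptions and not independent tests. GALNT15 had 3 or fewer counts in every Day 8 and Day 10 embryo and 0.108, 0.682 and 1.45 CPM on Day 12, at least 5.09-fold higher than on Day 10 (adjusted p = 2.75e-08). As GALNT15 was kept in the counts by day on Day 12 only, its rise is a description and not an independent test.

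Of the 11 GALNT genes, Day 10 had 1 called rise and 1 called fall, and Day 12 had 2 of each. The widely used starters GALNT1, GALNT2 and GALNT3 were not called between consecutive days. GALNT1 had 199 ± 27.6, 298.9 ± 60.0 and 158 ± 43.1 CPM, and GALNT2 53.2 ± 5.79, 83.3 ± 17.2 and 92.7 ± 24.2 CPM (SD, n = 10). GALNT7 was called lower and GALNT18 higher on Day 12 against Day 8 only. The call of GALNT7 (log2 fold change -1.04) was lost without d12_f_245 (-0.93) or d12_f_271 (-0.96). GALNT18 had 3 or fewer counts in 9 embryos of Day 8 and 4 of Day 10, and without the Day 8 male embryo d08_m_103 it was also called on Day 10 (2.95, adjusted p = 0.00047). GALNT6 was not called, but passed on Day 12 against Day 8 (1.93, adjusted p = 5.83e-05) without the Day 8 male embryo d08_m_136, which had 4.05 CPM where the others had at most 1.23 CPM. In the counts by day, GALNT18 was kept on no day and GALNT6 was not kept on Day 8.

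The branching enzyme GCNT3, which makes the core 2, core 4 and I branches of mucins, had the largest rise on Day 12 among the members with more than 3 counts in any Day 10 embryo. It had 4.05, 6.87 and 37.7 CPM on Day 8, 0.463, 1.30 and 2.74 CPM on Day 10 and 6.37, 48.5 and 168 CPM on Day 12. The Day 8 maximum came from male embryo d08_m_136, while the other 9 embryos had at most 9.61 CPM. GCNT3 fell to Day 10 without overlap (log2 fold change -2.69 ± 0.49, adjusted p = 2.78e-05) and rose to Day 12 without overlap (5.25 ± 0.53, adjusted p = 5.05e-10).

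GCNT4, a core 2 enzyme, had 0, 0.100 and 3.03 CPM on Day 10 and 0.289, 4.39 and 13.7 CPM on Day 12, where 8 of 10 embryos were above the highest Day 10 embryo. Its log2 fold change was 3.32 ± 0.70 (adjusted p = 0.000154), and it was not called when only Days 10 and 12 were fitted (3.27, adjusted p = 0.00149). GCNT4 was also kept in the counts by day on Day 12 only, and its rise is not an independent test. In 7 of the 10 Day 10 embryos GCNT4 had 3 or fewer counts, and without the male embryo d10_m_453, which had the 3.03 CPM, the log2 fold change was 4.52. GCNT1, the main core 2 enzyme of many cells, had 38.4 ± 8.94, 23.8 ± 7.10 and 45.7 ± 17.3 CPM (SD, n = 10) and was not called. It stood just below the threshold on Day 12 (log2 fold change 0.94) and passed without d10_m_435, d10_m_453 or d12_m_307 (1.01 to 1.04).

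**Figure D4:**
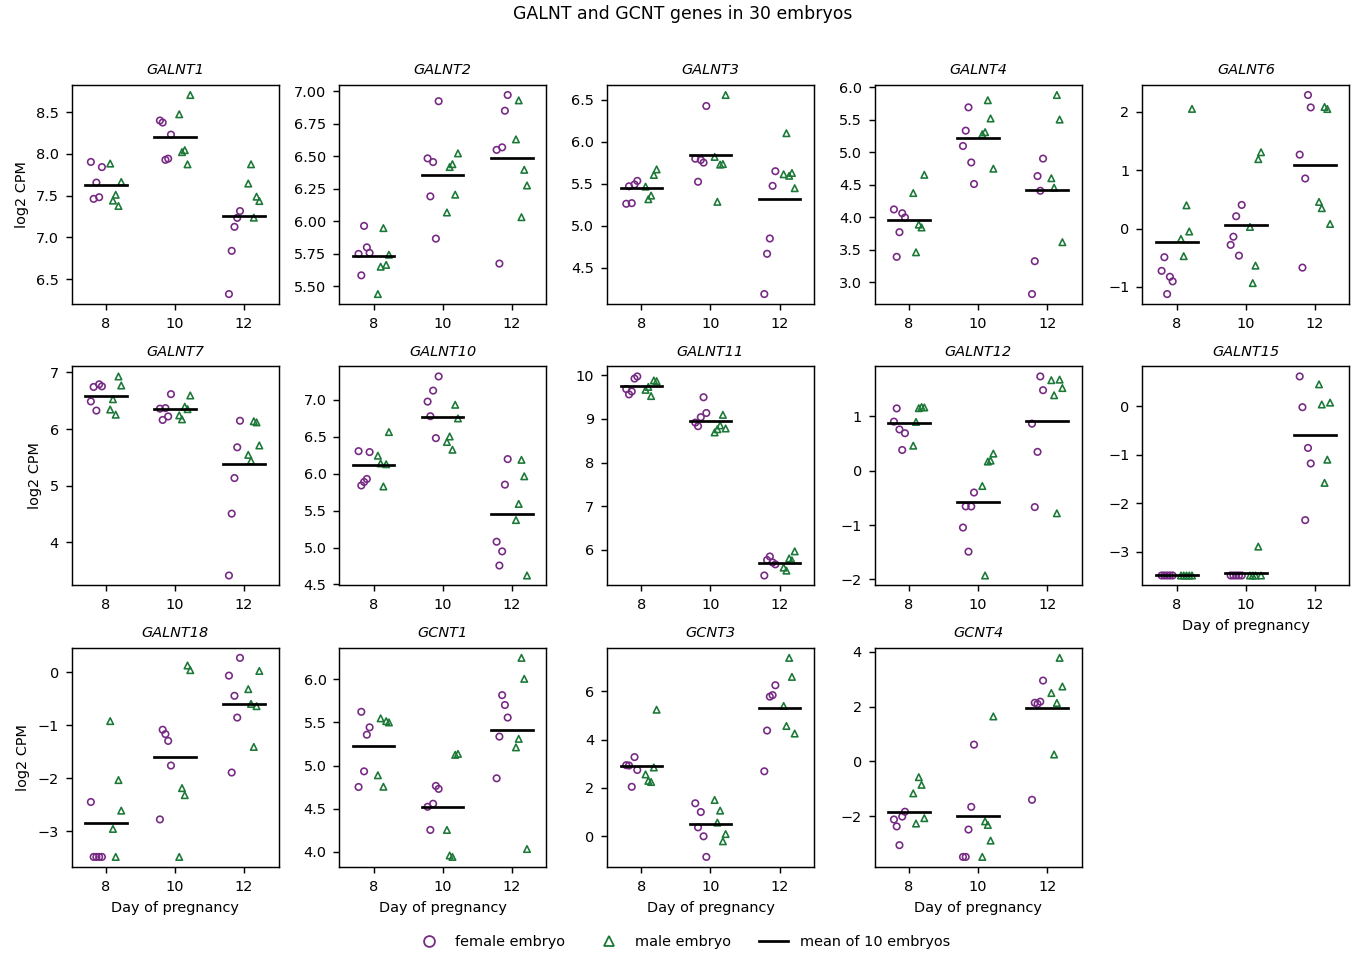
Log2 CPM of the 11 GALNT genes, which start O-glycans, and the 3 GCNT genes, which branch them, by day, with circles for female embryos, triangles for male embryos and a bar for the mean of 10 embryos. GALNT11 steps down from 836 to 472 to 53.2 CPM in the medians, and GCNT3 has its lowest levels on Day 10 and its highest on Day 12.

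Among the N-glycan enzymes, MGAT2 completes the second antenna of complex N-glycans. It had 48.9, 60.9 and 70.2 CPM on Day 8 and 18.2, 29.2 and 35.7 CPM on Day 10, with no overlap and a log2 fold change of -1.13 ± 0.11 (adjusted p = 4.51e-10). On Day 12 it had 42.3, 50.2 and 66.3 CPM, again without overlap, but the log2 fold change of 0.88 ± 0.11 (adjusted p = 2.49e-08) stood below the size required for a call. Under scaling by library size alone MGAT2 was called higher at this step (1.06, adjusted p = 4.52e-09). MGAT1, which opens the way to all complex N-glycans, had 76.4 ± 8.07, 53.1 ± 7.10 and 77.9 ± 8.77 CPM (SD, n = 10) and was not called.

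MGAT4A and MGAT4B add the same β1,4-linked branch and moved apart. MGAT4A had 264, 288 and 384 CPM on Day 8 and 104.7, 114 and 164 CPM on Day 10, a fall without overlap (log2 fold change -1.23 ± 0.11, adjusted p = 2.75e-10), and 56.7, 90.7 and 129.3 CPM on Day 12. MGAT4B had 11.6 ± 2.05, 19.8 ± 4.73 and 36.6 ± 4.33 CPM (SD, n = 10). MGAT4B was not called between consecutive days and was called on Day 12 against Day 8 (log2 fold change 1.65 ± 0.12, adjusted p = 2.17e-13), where MGAT4A was called lower (-1.70 ± 0.12, adjusted p = 4.69e-14).

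MGAT5, the enzyme of the β1,6 branch that carries long lactosamine chains, rose on Day 12 from 16.3 ± 1.82 to 36.5 ± 8.20 CPM without overlap (SD, n = 10; log2 fold change 1.16 ± 0.11, adjusted p = 1.05e-10). Its relative MGAT5B, known from O-mannose glycans of brain, had 0.156, 0.299 and 1.21 CPM on Day 8, 0.818, 2.13 and 5.56 CPM on Day 10 and 2.75, 4.23 and 7.38 CPM on Day 12. MGAT5B rose on Day 10 (log2 fold change 2.44 ± 0.35, adjusted p = 7.63e-07), with 9 of 10 embryos above the highest Day 8 embryo. As MGAT5B was not kept in the counts by day on Day 8, that rise is a description and not an independent test. On Day 12 against Day 10 the gene was not called (0.93 ± 0.31, adjusted p = 0.0116), but edgeR's robust GLM called it higher (1.04, adjusted p = 0.000297). MGAT3, which adds the bisecting sugar, fell from 0.237, 0.901 and 1.71 CPM on Day 8 to 0.037, 0.206 and 0.409 CPM on Day 10 (log2 fold change -2.27 ± 0.41, adjusted p = 2.18e-05), with 8 of 10 embryos below the lowest Day 8 embryo and 4 at 3 or fewer counts. MGAT3 was kept in the counts by day on Day 8 only, and its fall is not an independent test. Of the 7 MGAT genes, 1 rise and 3 falls were called on Day 10, against 1 rise and 0 falls on Day 12.

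The chain-extending B3GNT genes changed in both directions on Day 12. B3GNT2, the main enzyme of polylactosamine, had 293, 356 and 390 CPM on Day 8, 166, 247 and 291 CPM on Day 10 and 22.4, 98.8 and 123 CPM on Day 12. It fell on Day 12 without overlap (log2 fold change -1.47 ± 0.19, adjusted p = 5.63e-08), and the lowest level was again that of female embryo d12_f_271. B3GNT7, known from keratan sulfate chains, had 7.51, 9.18 and 23.0 CPM on Day 8, 7.63, 16.2 and 37.6 CPM on Day 10 and 58.0, 143 and 279 CPM on Day 12, a rise without overlap (3.02 ± 0.30, adjusted p = 5.05e-10).

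B3GNT8, which works with B3GNT2 on branched N-glycans, was high on Day 10 alone. It had 4.65, 7.05 and 12.3 CPM on Day 8, 20.5, 35.4 and 47.1 CPM on Day 10 and 1.70, 2.78 and 5.93 CPM on Day 12, and the Day 10 embryos did not overlap with either other day. The log2 fold changes were 2.21 ± 0.22 (adjusted p = 8.23e-10) and -3.54 ± 0.23 (adjusted p = 4.21e-14). B3GNT3, B3GNT5, B3GNT6 and B3GNTL1 were not called in any comparison, and B3GNT5, which starts the lacto-series of glycolipids, had 84.2 ± 9.77, 77.7 ± 12.6 and 85.6 ± 38.6 CPM (SD, n = 10). Of the 7 B3GNT genes, 1 rise was called on Day 10, and Day 12 had 1 rise and 2 falls.

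No galactosyltransferase was called on Day 10, and the B4GALT genes parted on Day 12. B4GALT1, the main enzyme of lactosamine, had 49.8, 56.9 and 74.2 CPM on Day 8, 71.4, 87.9 and 95.3 CPM on Day 10 and 324, 589 and 1016 CPM on Day 12. It rose without overlap (log2 fold change 2.82 ± 0.13, adjusted p = 1.73e-17). B4GALT4, which acts on sulfated chains, had 25.8, 34.0 and 53.3 CPM on Day 8, 15.4, 20.6 and 28.1 CPM on Day 10 and 59.3, 127 and 181 CPM on Day 12, and rose without overlap (2.62 ± 0.16, adjusted p = 5.80e-15). B4GALT7, which adds the first galactose of the glycosaminoglycan linker, rose from 13.1 ± 1.71 to 27.3 ± 6.72 CPM (SD, n = 10; 1.06 ± 0.13, adjusted p = 1.79e-08), and without d12_f_245 the log2 fold change of 0.99 was below the size required.

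B4GALT5, which makes lactosylceramide, had 657, 709 and 792 CPM on Day 8, 536, 727 and 1005 CPM on Day 10 and 52.8, 124.3 and 185 CPM on Day 12. It fell on Day 12 without overlap (log2 fold change -2.52 ± 0.17, adjusted p = 7.88e-14). B4GALT6, the other lactosylceramide synthase, had 3.45 ± 1.20, 5.08 ± 1.57 and 7.66 ± 3.27 CPM (SD, n = 10), and was called higher on Day 12 against Day 8 only, as were B4GALT2 and B3GALT4. B4GALT3 and B3GALT6 were not called.

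**Figure D5:**
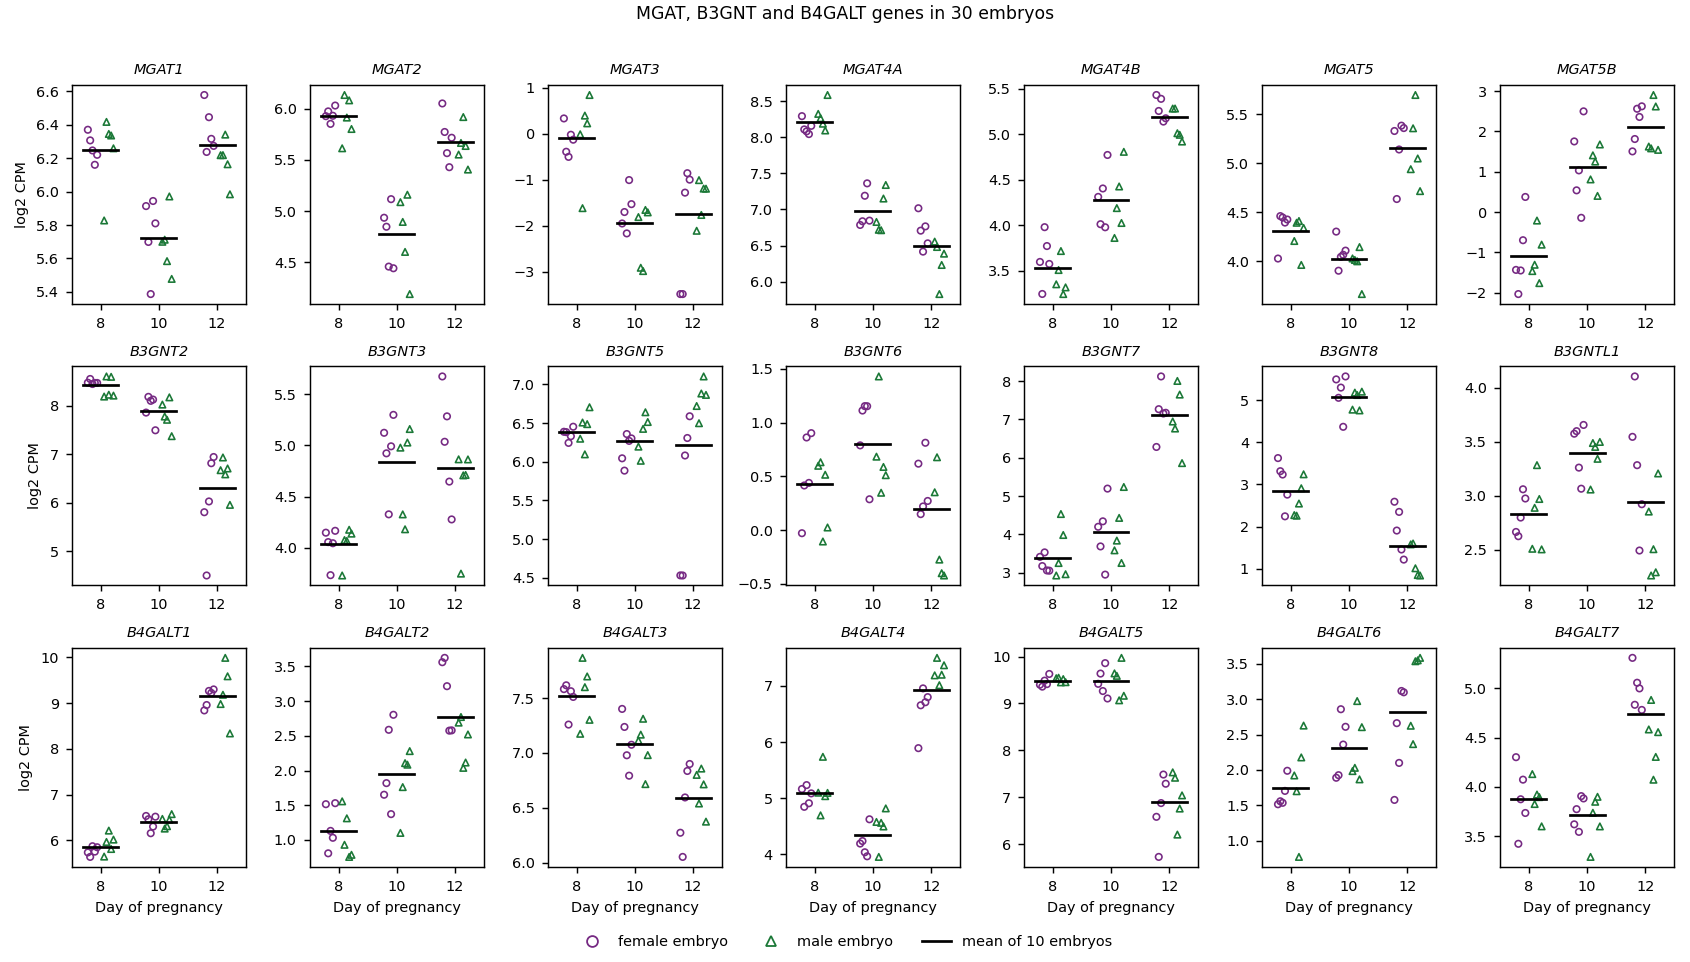
Log2 CPM of the 7 MGAT genes (top row), the 7 B3GNT genes (middle row) and the 7 B4GALT genes (bottom row) by day, with circles for female embryos, triangles for male embryos and a bar for the mean of 10 embryos. B3GNT8 is high on Day 10 only, B3GNT7, B4GALT1 and B4GALT4 are high on Day 12, and B4GALT5 and B3GNT2 are lowest on Day 12.

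Over the whole interval, 28 of the 55 genes were called between Days 8 and 12, 18 higher and 10 lower, where 32.5% of all genes were called, 22% higher and 10.4% lower. The median log2 fold change was 0.28, against 0.09 over all genes. No overlap of the embryos was found for 14 of the 55 genes between Days 8 and 10, 19 between Days 10 and 12 and 21 between Days 8 and 12, where 22%, 16.6% and 31.7% of all genes did not overlap. Genes with the same bond in one family stood on both sides of the count: ST6GALNAC1 and ST6GALNAC2, MGAT4A and MGAT4B, B3GNT2 and B3GNT7, and B4GALT1 and B4GALT5 were each called in opposite directions on Day 12 against Day 8. These pairs were chosen after their values were seen.

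Spread among embryos of one day was larger for these genes than for the median gene. Over genes with a mean of at least 1 CPM, the median coefficient of variation of the members was 21.0% on Day 8, 23.2% on Day 10 and 39.2% on Day 12, against 13.8%, 17.9% and 28.9% over all such genes, given without a test. The members were not matched to the other genes by level, on which this measure depends. Some embryos of Day 12 were at the end of the range for several genes. Of the 17 genes called higher, male embryo d12_m_276 had the highest level for 6 and the lowest for 5, and female embryo d12_f_245, the smallest library, the highest for 5 and the lowest for 4. Counts of calls without each embryo in turn were 14 to 16 for Day 10 against Day 8 and 20 to 23 for Day 12 against Day 10.

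Markers of the cell layers moved between the same days. All 6 epiblast markers were called lower on Day 12 than on Day 10. The medians of their summed CPM were 162, 130 and 43.8 on Days 8, 10 and 12, with a range from 11.7 to 153 on Day 12. This sum was mostly LIN28A, with medians of 117.3, 111.3 and 42.6 CPM and a Day 12 maximum of 151.6 CPM. NANOG, SOX2, PRDM14 and NODAL had 3 or fewer counts in all 10 Day 12 embryos, and POU5F1 had at most 4.05 CPM. The top of the Day 12 range is therefore a reading of LIN28A and not of the list. Of 6 hypoblast markers 4 were called higher and 0 lower, with sums of 320, 199 and 578 and a Day 12 range from 171 to 1458. Of 8 trophectoderm markers 2 were called higher and 4 lower, with sums of 23799, 42339 and 13222. These sums were mostly KRT8 (means of 12248, 24502 and 10225 CPM) and KRT18 (10075, 16628.5 and 3585 CPM). GATA2, the next highest, had means of 460, 327 and 425 CPM. Of the 3 mesoderm markers HAND1 was called higher and T and EOMES lower, with sums of 2.39, 70.7 and 1064. The sum was mostly EOMES on Day 8 and HAND1 on Days 10 and 12, so that it reads these genes and not the list. The uterine epithelium was represented by 4 markers with sums of 1.75, 4.11 and 12.3, of which 0 were called between consecutive days and 2 were called higher on Day 12 than on Day 8. Blood was represented by HBB, also called higher on Day 12 than on Day 8, which did not exceed 3 counts in any embryo of Day 8 and had a median of 0.945 CPM on Day 12. The part of these shifts in the changes of the glycosyltransferases was not tested.

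Between female and male embryos no member was called on any day, at an adjusted p under 0.05 in edgeR's quasi-likelihood test, and none by edgeR's robust GLM or by DESeq2. The tests covered 49, 48 and 53 members on Days 8, 10 and 12, and 0.658%, 0.223% and 0.123% of all genes were called. At an unadjusted p under 0.05 there were 0, 0 and 11 members, where 4.59%, 2.36% and 22.7% of all genes stood, so that the share of members on Day 12 was near that of all genes. No placed member lies on the X chromosome, 52 being placed on 16 autosomes. The other 3, FUT9, FUT10 and GALNT6, are on unplaced scaffolds, and their chromosome is not given.

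The smallest adjusted p on Day 12 was 0.198. B4GALT4, the 1 member whose sexes did not overlap, stood at 106 ± 23.9 CPM in the females and 160.0 ± 23.0 CPM in the males (SD, n = 5; log2 fold change -0.59 ± 0.18, edgeR adjusted p = 0.198). FUT9 had 188 ± 102 and 329 ± 187 CPM, scaled within Day 12 (SD, n = 5; log2 fold change -0.81 ± 0.48, edgeR adjusted p = 0.311), and the sexes overlapped. No sex difference was called as changing between days, with 0 and 3 of 55 genes at an unadjusted p under 0.05, against 0.763% and 18.9% of all genes, and 0 called by DESeq2.

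Genes that supply, share or remove the same sugars were counted in lists drawn up for this description, beside the 14.1% of all genes called on Day 10 and 23.3% on Day 12. Of 28 genes of sugar donor synthesis and transport, 3 were called higher and 1 lower on Day 12 against Day 10, a smaller share than over all genes, with a median log2 fold change of 0.31 against 0.04 over all genes. UAP1, which makes UDP-N-acetylglucosamine, rose from 4.76 to 137 CPM in the means (log2 fold change 4.84 ± 0.19, adjusted p = 8.73e-20). The other risers were GFPT1, at the entry of the same route (1.68 ± 0.16, adjusted p = 8.76e-11), and GMDS, of GDP-fucose synthesis (1.63 ± 0.24, adjusted p = 6.59e-07), and RENBP, which converts N-acetylglucosamine and N-acetylmannosamine, fell (-2.85 ± 0.20, adjusted p = 1.38e-13). GMDS was also the 1 donor gene called higher on Day 10, from 4.51 to 22.7 CPM (2.34 ± 0.25, adjusted p = 4.57e-09), beside GALK1, which was called lower.

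Of 11 sialidases, fucosidases and related breakdown enzymes, 0 were called higher and 5 lower on Day 12, NEU1, FUCA1, FUCA2, GLB1 and NPL, where 14.9% of all genes were called higher and 8.39% lower (median log2 fold change of the list -0.60). The lysosomal sialidase NEU1 fell the most, from 721 to 147 CPM (log2 fold change -2.30 ± 0.18, adjusted p = 2.80e-12). On Day 10, 1 of them was called higher, FUCA2 (2.04 ± 0.28, adjusted p = 3.14e-07), and 0 lower.

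Of 18 related transferases, 3 were called higher and 2 lower on Day 12, a share near that of all genes (23.3%), with a median log2 fold change of 0.28. The largest rise was in B3GLCT, which extends O-fucose on thrombospondin repeats, from 2.54 to 19.0 CPM (log2 fold change 2.90 ± 0.21, adjusted p = 5.68e-13). The largest fall was in UGCG, the glucosylceramide synthase whose product is the substrate of B4GALT5, from 81.6 to 20.5 CPM (-1.998 ± 0.11, adjusted p = 3.53e-16). On Day 10, 2 were called higher and 2 lower.

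Among the galectins, lectins that bind galactose-containing chains, LGALS7 was called higher and LGALS4 lower on Day 12. LGALS4 fell from 30.6 to 9.08 CPM (log2 fold change -1.76 ± 0.15, adjusted p = 2.07e-11), and its embryos of the 2 days did not overlap. LGALS7 rose from 0.674 to 1.99 CPM (1.55 ± 0.32, adjusted p = 0.000109), with overlapping embryos. On Day 10, LGALS3 was called higher, from 10.4 to 117 CPM (3.50 ± 0.24, adjusted p = 3.53e-13).

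Of 12 heavily glycosylated carriers, 3 were called higher and 0 lower on Day 12, MUC4, CD44 and DAG1, a share near that of all genes (23.3%), with a median log2 fold change of 0.89. The membrane mucin MUC4 rose from 0.585 to 8.00 CPM (log2 fold change 3.73 ± 0.62, adjusted p = 5.21e-06). On Day 10, 2 were called higher, MUC1 and MUC4, and 1 lower, MUC20. MUC4 had 3 or fewer counts in 9 embryos of Day 8 and 4 of Day 10, and MUC1 in 5 embryos of Day 8. On Day 10 MUC1 had a mean of 2.26 and a median of 0.519 CPM, and MUC4 a mean of 0.585 and a median of 0.283 CPM.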

How the data were processed

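The deposited tables hold raw read counts per NCBI gene identifier, for all 30 embryos (13103 genes) and for each day. The authors trimmed the single-end reads (Trim Galore, with a short stretch cut at the start of each read), aligned them to Sscrofa11.1 and later kept genes above a CPM minimum. The aligner, the counter, its use of strand and the CPM minimum are not given in the sources used here, and a stranded mRNA kit was used. Total counts ran from 6068212 to 34002508 per embryo, and 3 counts (0.434 CPM in the smallest library) were taken as the floor, which covers counting error only.

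Symbols and positions were taken from the RefSeq gene table of the same assembly, which matched all 13103 identifiers. Counts were scaled with TMM factors and tested with the quasi-likelihood F test in edgeR 4.0.16 (R 4.3.3, robust dispersion), with 1 fit of 3 day groups and 1 fit per day for the sexes, and Benjamini-Hochberg adjustment over all genes of the table. Each SE was obtained as the log2 fold change divided by the square root of F. A sex by day term came from a fit of 6 groups. A lower bound divides the later mean CPM by the mean CPM of 3 counts in each earlier library. Figures show log2 CPM with a prior count of 2. No 2 embryos of a group agreed within counting error (lowest chi-square ratio to its degrees of freedom 7.64, 60 pairs).

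Full values are given for up to 12 called members with the largest rise and 12 with the largest fall per pair of consecutive days and for FUT9. Context genes are named where they were the largest rise or fall of their list, and the other context genes named were chosen after their values were seen. One context gene and the counts that include it are not reported here. Members and lists were chosen with earlier results of these data known. The alternatives were edgeR's robust GLM, which the authors used, DESeq2 1.42.0, RLE factors, library size alone, a filter of 10 counts in 5 embryos, a sex term, a fit of only the 2 days compared, fits of either sex, a threshold test (glmTreat) at a log2 fold change of 1, and each embryo left out in turn. The tests were checked on simulated counts drawn independently for each embryo, where calls used the adjusted p alone. That check does not cover shared litters or the fold change required for a call between days.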

Additional observations from a re-analysis of the deposited data

Results flagged for a closer look

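All 55 members were examined, and in 9 of 161 sets of 10 embryos (1 member on 1 day, where any embryo had more than 3 counts), the lowest or highest embryo stood farther from the rest on the log2 CPM scale than Dixon's 95% critical value allows, where chance alone gives about 1 in 20. On Day 8, male embryo d08_m_136 was highest for GCNT3 (37.7 CPM, the others 4.05 to 9.61) and for MGAT4A (384 CPM, the others 264 to 320) and for GALNT6 (4.05 CPM, the others 0.371 to 1.23), male embryo d08_m_103 was lowest for MGAT1 (56.7 CPM, the others 71.5 to 85.4), and male embryo d08_m_121 was highest for B4GALT4 (53.3 CPM, the others 25.8 to 37.6). On Day 12, female embryo d12_f_271 was lowest for ST3GAL1 (2.28 CPM, the others 22.1 to 56.4) and for B3GNT2 (22.4 CPM, the others 55.7 to 123), and female embryo d12_f_245 was lowest for B4GALT4 (59.3 CPM, the others 101 to 181) and highest for ST6GALNAC4 (43.98 CPM, the others 4.43 to 13.2). Leaving out each of these embryos changed the call of its gene between days in 1 case, GALNT6 on Day 12 against Day 8, which passed without d08_m_136.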

How the results depend on the processing

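The counts of members called on Day 10 against Day 8, Day 12 against Day 10 and Day 12 against Day 8 were 15, 22 and 28. They moved by more than 1.5 times under 3 settings: 7 in the first comparison with female embryos alone, 7 in the first and 12 in the second with male embryos alone, where fewer samples were fitted, and 5, 10 and 18 when tested against a log2 fold change of 1. The robust GLM gave 18, 25 and 30, DESeq2 16, 22 and 28, library size alone 14, 28 and 28, and 2 days in the fit 16, 19 and 28. Library size alone moved the median of all genes to -0.15, 0.24 and 0.10 on the log2 scale. Leaving out each embryo gave 14 to 16, 20 to 23 and 27 to 29 members between days and 0 between sexes. Of 33 named changes called between consecutive days, 30 were called in all 30 of these fits, and the exceptions were FUT2A on Day 12 and GALNT12 and ST6GALNAC2 on Day 10. No named change reversed. No paired analysis was possible because each embryo number is used once and the gilts are not given. Of all members called, 13 of 15, 19 of 22 and 27 of 28 were called in all 30 fits. The limit of depth is 3 counts, which every embryo of Days 8 and 10 was at or under for FUT9 and GALNT15, and some embryos for FUT2, ST6GALNAC1, GALNT18, GCNT4, MGAT3 and MGAT5B, and the robust GLM's call of FUT9 on Day 10 lies at that floor.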
